A study of Mus musculus with 4 samples.

Results

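Voltage-gated sodium channel subunits were followed through single-cell RNA-seq of mouse dorsal root ganglia (DRG): the alpha subunits Scn1a, Scn7a, Scn8a, Scn9a, Scn10a and Scn11a and the beta subunits Scn2b, Scn3b and Scn4b. These 9 genes were taken by symbol from the 33456 genes of the count matrices. Ganglia came from C57BL/6 mice of 8 to 12 weeks, with no transgene named in the labels. The labels give the tissue as L4 DRG, whereas the methods of the study name L4 and L5. The control group was uninjured and the injury group was collected 3 days after a sciatic nerve crush, with 2 libraries in each group. Whole ganglia were digested with papain and collagenase, sorted for live cells and loaded on a droplet platform (10x Chromium, 3' kit), which tags captured RNA with a unique molecular identifier (UMI) and with a barcode that stands for 1 cell. Cells of several mice were pooled in each batch, and the labels tie no library to single animals. A crush reaches only the axons that run in the sciatic nerve, so an injured ganglion can also hold neurons with intact axons.

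A sodium channel alpha subunit forms the pore that lets sodium in during the rising phase of the action potential. The beta subunits are single-pass membrane proteins that alter its gating and its place at the cell surface. Sensory neurons of the DRG carry channels that tetrodotoxin blocks (tetrodotoxin-sensitive) and channels that withstand it (tetrodotoxin-resistant), the latter best known from pain-sensing neurons, and the mix of channels sets how readily a neuron fires.

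The 4 libraries held 6975 barcodes, with 5585909 to 11210875 UMIs per library. Barcodes were assigned to cell types by marker lists that contain no sodium channel gene. The neuron gate took 357 barcodes, 30 and 194 in control libraries 1 and 2 and 40 and 93 in injury libraries 1 and 2, with a median of 20618 UMIs. Its 10 markers were all detected in each library, with Snap25, which encodes a synaptic fusion protein, at 438 to 911 CPM (UMIs of the gene per 1000000 UMIs summed), against 3.57 CPM in macrophages. Satellite glial marker genes summed to 172 and 528 CPM in neurons of the control libraries and 220 and 443 CPM in those of the injury libraries. A single barcode held 18.9% of the neuronal UMIs of control library 1, and without it the level of Scn10a there was 228 CPM in place of 216 CPM. Across pairs of libraries 20 barcode sequences recurred, none of them a neuron in both. Doublets were not called, and a barcode whose 2 best marker scores lay close together was left out of the gates. All levels below are CPM of the UMIs summed over a gate in a library, and since the kit reads 3' ends, levels were not compared between genes.

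Scn10a and Scn11a lie next to each other on mouse chromosome 9 (GRCm38, GENCODE vM21), Scn10a at chr9:119608456-119719322 and Scn11a at chr9:119753759-119825456, both on the minus strand and 34436 bases apart. Scn1a (chr2:66270778-66440840), Scn9a (chr2:66480080-66634962) and Scn7a (chr2:66673425-66784914) stand in a row on the minus strand of chromosome 2. Scn8a is on chromosome 15 (chr15:100869858-101045938, plus strand), and the beta subunit genes are on the plus strand of chromosome 9, with Scn2b at chr9:45117782-45130070, Scn4b at chr9:45138395-45154152 and Scn3b at chr9:40269217-40291618. The annotation places an antisense gene over Scn1a, Scn9a, Scn2b and Scn3b, and the strand setting of the count is not given in the sources used here.

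Because several of these genes fell together in neurons with injury-response genes, as described further on, the stretches just upstream of a RefSeq start (GRCm38.p6) were read for 8 of the 9 genes, Scn3b not being in the table. Shown 5' to 3' on the gene's own strand are Scn9a (chr2:66634963-66635212), Scn11a (chr9:119825457-119825706) and Scn7a (chr2:66784915-66785160), the members whose windows lie upstream of the annotated gene and whose levels the results turn on. Capitals mark a match to a GC box.
Scn9a: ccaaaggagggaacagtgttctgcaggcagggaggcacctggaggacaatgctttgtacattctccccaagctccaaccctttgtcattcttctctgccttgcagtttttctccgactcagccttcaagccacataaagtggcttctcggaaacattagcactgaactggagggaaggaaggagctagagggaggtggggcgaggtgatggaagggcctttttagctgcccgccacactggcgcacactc
Scn11a: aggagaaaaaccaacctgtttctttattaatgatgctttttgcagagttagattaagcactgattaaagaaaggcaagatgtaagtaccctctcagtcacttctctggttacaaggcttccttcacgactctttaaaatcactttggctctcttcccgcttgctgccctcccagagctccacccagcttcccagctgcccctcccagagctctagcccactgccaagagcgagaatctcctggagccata
Scn7a: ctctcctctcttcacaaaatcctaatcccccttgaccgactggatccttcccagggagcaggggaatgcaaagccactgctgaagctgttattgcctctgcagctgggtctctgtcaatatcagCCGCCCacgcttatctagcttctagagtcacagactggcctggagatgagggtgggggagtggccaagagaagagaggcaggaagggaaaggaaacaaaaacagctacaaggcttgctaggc
Within the 250 bases before the start, the AP-1 letters TGANTCA, searched on both strands, were in 6.75% of 32851 promoter windows and in no window of these genes. The cyclic AMP response element TGACGTCA was in 1.55% of windows and likewise in no window of these genes. The GC box GGGCGG was in 32.7% of windows and here only upstream of Scn7a, at 126 to 121 bases before the start. The RUNX letters TGTGGT were in 14.05% of windows and here only upstream of Scn2b, at 103 to 98 bases before the start. None of these matches overlapped another.

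Most sodium channel UMIs were read in neurons. Neurons held 26.4% of all UMIs in the data, but 98.6% of the 2561 UMIs of Scn9a, 98.4% of the 973 of Scn10a, 97.7% of the 853 of Scn11a and 97.2% of the 142 of Scn1a. The share was lower for Scn2b (80.3% of 651 UMIs), Scn8a (77.3% of 277), Scn7a (68.3% of 2474), Scn4b (68.0% of 175) and Scn3b (54.9% of 719). Against the mean of the other gates, with the library as a block, all 7 members that passed the filter on low counts were called higher in neurons (edgeR quasi-likelihood test, adjusted p under 0.05 and a fold over 4; background 19.7% higher and 2.45% lower of 9827 genes). That filter keeps a gene that is high in any 1 gate, and Scn9a, Scn10a and Scn11a passed it through neurons alone. Their calls were thus nearly fixed in advance, and the count of calls cannot be weighed against that background. The log2 difference was 8.63 ± 0.26 (SE) for Scn9a, which encodes NaV1.7 of peripheral sensory neurons (adjusted p = 5.68e-35). It was 8.00 ± 0.35 for Scn10a (adjusted p = 3.19e-25) and 7.74 ± 0.36 for Scn11a (adjusted p = 5.99e-25). The beta subunit genes differed by 5.596 ± 0.43 (Scn2b, adjusted p = 1.83e-16), 4.84 ± 0.64 (Scn4b, adjusted p = 1.41e-08) and 4.43 ± 0.43 (Scn3b, adjusted p = 1.51e-13), and Scn7a by 3.86 ± 0.34 (adjusted p = 3.18e-12). The median difference over all genes was 0.42. Many gates held few or no UMIs of a member, so these fitted differences depend on the prior count and are no bounds; DESeq2 gave 5.96 for Scn10a, 5.93 for Scn11a and 2.86 for Scn4b and called none of these 3. Scn1a and Scn8a were below the low-count filter.

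**Figure D1:**
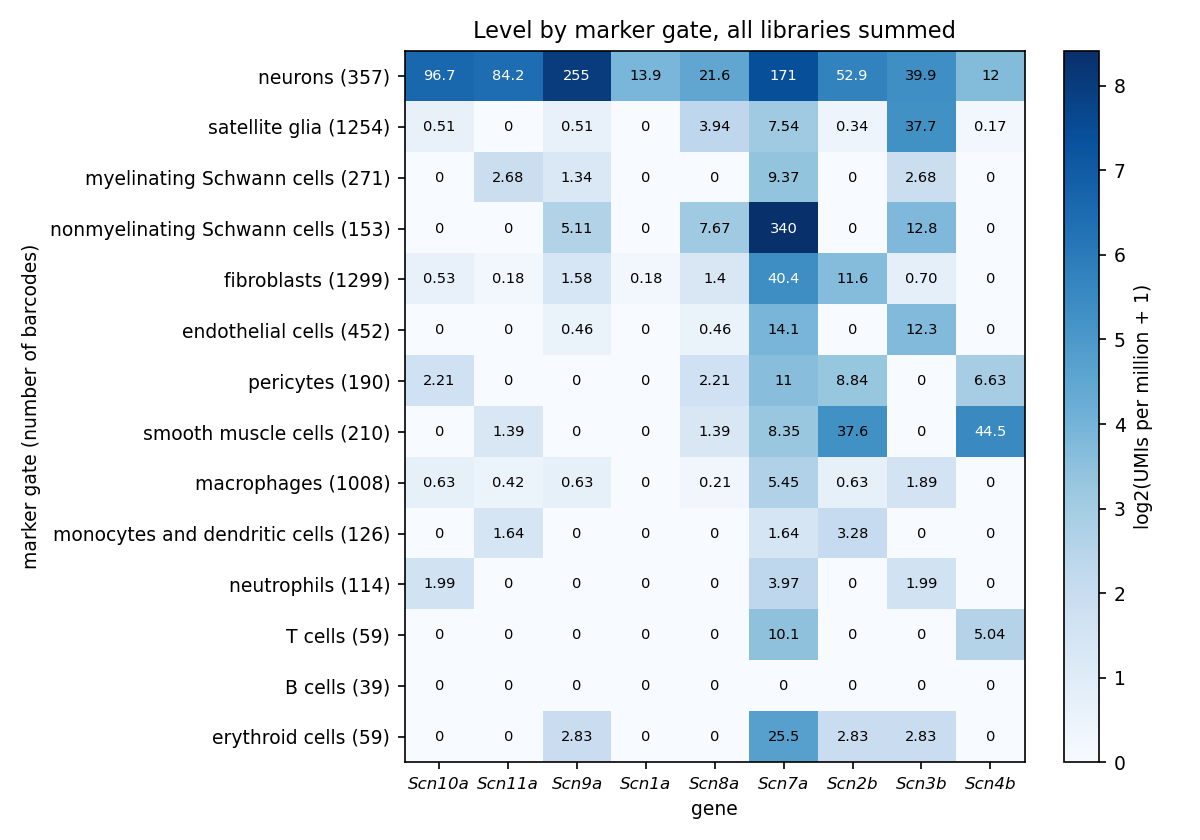
Level of each member (columns) in each marker gate (rows, with the number of barcodes), as CPM with the 4 libraries summed; the number is printed in each cell and the colour is log2(CPM + 1). Neurons hold the highest value of 5 columns, from Scn10a to Scn8a, and of Scn3b (39.9 CPM, beside 37.7 in satellite glia) and Scn2b (52.9), while Scn7a is highest in the nonmyelinating Schwann gate (340 CPM) and Scn4b in smooth muscle cells (44.5 CPM).

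Scn10a, which encodes the tetrodotoxin-resistant channel NaV1.8, was read in 151 of 357 neurons (42.3%) and in 4 of 1346 immune barcodes (0.297%) (macrophages, monocytes and dendritic cells, neutrophils, T and B cells), which should lack it, at medians of 20618 UMIs in neurons and 4060 in macrophages. With each barcode thinned to 1000 UMIs the shares were 7.15% and 0.110%. Scn11a, which encodes the persistent tetrodotoxin-resistant channel NaV1.9, was read in 160 neurons (44.8%) and 3 immune barcodes (0.223%). The pair overlapped within cells, with 126 neurons holding UMIs of both, 83.4% of those with Scn10a and 78.8% of those with Scn11a. Scn9a was read in 338 neurons (94.7%, thinned 25.6%) and in 3 immune barcodes. Outside neurons the order of levels for these 3 genes was not resolved, since no gate held more than 9 of their UMIs.

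Scn3b was also read in satellite glia, which wrap neuronal cell bodies. Its level in satellite glia was 52.1 and 48.2 CPM in the control libraries and 15.9 and 41.9 CPM in the injury libraries, and in neurons it was 32.9 and 56.0 CPM and 17.5 and 33.3 CPM. These ranges overlap, so neurons and satellite glia did not differ beyond the spread over libraries. Scn3b was read in 15.4% of 1254 satellite glia (95% exact binomial interval 13.4 to 17.5%) but in 0.794% of 1008 macrophages of similar depth (medians of 4259.5 and 4060 UMIs). Thinned to 1000 UMIs the shares were 3.44% and 0.187%. Neuronal marker genes summed to 125 CPM in satellite glia, against 12390 CPM in neurons. Intervals here and below cover counting error only.

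Scn4b, whose product binds alpha subunits through a disulfide bond and shapes resurgent current, had its highest level in smooth muscle cells. It was 58.2 and 63.9 CPM there in the control libraries and 32.7 and 21.1 CPM in the injury libraries, above the 16.0, 15.8, 4.23 and 9.80 CPM of neurons of the same libraries in each case. It was read in 31 of 210 smooth muscle barcodes (14.8%, thinned 4.47%) and in none of 1008 macrophages, which allows a share of barcodes with a UMI of up to 0.298% and sets no limit on cells that express the gene at a low level. Scn2b was also read in smooth muscle cells, at 89.5, 24.0, 10.9 and 10.6 CPM in the libraries in the same order, and in fibroblasts at 9.26, 13.5, 12.7 and 10.0 CPM. In neurons Scn2b was above smooth muscle cells in 3 of the 4 libraries, control library 1 being the exception. Scn8a was read in 1.83% of satellite glia and in 1 of 1008 macrophages.

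Scn7a encodes Nax, a relative of the alpha subunits that responds to sodium concentration rather than opening with voltage, and it was the member most widely read outside neurons. In the gate set by nonmyelinating Schwann cell markers it was 889 and 156 CPM in control libraries 1 and 2 and 318 and 49.0 CPM in injury libraries 1 and 2, the last from only 8 barcodes. The level of this gate lay above that of neurons in control library 1 (173 CPM) and injury library 1 (67.7 CPM) and below it in control library 2 (227 CPM) and injury library 2 (151 CPM), so their order was not settled. The gate is not pure: satellite glial markers summed to 3090 CPM in it, above the 2285 CPM of its own list. Fabp7 was at 2707 CPM. L1cam (202 CPM) and Ngfr (133 CPM), both cell surface proteins of nonmyelinating Schwann cells, were above their level in satellite glia (8.92 and 1.03 CPM). Both are on the list that set the gate, so their level there cannot speak for its identity. Neurons held them at 153 and 130 CPM, and fibroblasts held Ngfr at 111 CPM. Fibroblasts came next, at 37.0, 33.7, 40.1 and 51.7 CPM, a narrow range that lay under every value of the neurons. Satellite glia (0, 6.94, 7.36 and 9.62 CPM) and myelinating Schwann cells (8.80, 6.74, 4.33 and 21.4 CPM) did not stand apart from macrophages (2.33, 28.8, 3.06 and 8.58 CPM).

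Counted by barcodes with a UMI, Scn7a was read in 37.9% of the 153 barcodes of the nonmyelinating Schwann gate (95% exact binomial interval 30.2 to 46.1%), in 13.8% of 1299 fibroblasts (12.0 to 15.8%), in 2.07% of satellite glia (1.36 to 3.02%), in 2.21% of 271 myelinating Schwann cells (0.817 to 4.76%) and in 1.39% of macrophages (0.761 to 2.32%). Thinned to 1000 UMIs these were 25.9, 3.94, 0.699, 1.20 and 0.424%. The share in neurons was 86.3%, which fell to 19.5% after thinning, under that of the nonmyelinating Schwann gate with all libraries pooled. By library this order was not settled. The thinned shares of control libraries 1 and 2 and injury libraries 1 and 2 were 50.9, 9.28, 23.5 and 5.96% in that gate. In neurons they were 19.5, 22.5, 8.20 and 18.0%. Glia whose scores lay between the glial gates held Scn7a at 187, 18.5, 65.9 and 15.2 CPM.

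**Figure D2:**
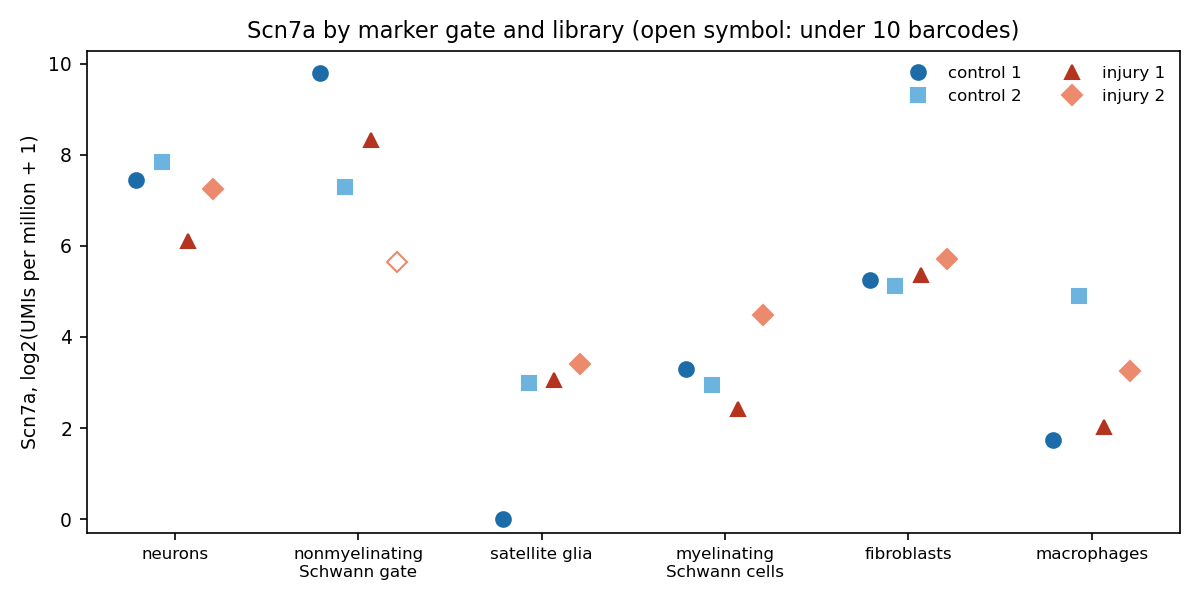
Scn7a in 6 marker gates, 1 symbol per library, as log2(CPM + 1); the open symbol is a sum of 8 barcodes. The nonmyelinating Schwann gate and the neurons share the top of the plot, fibroblasts sit between 33.7 and 51.7 CPM, and satellite glia, myelinating Schwann cells and macrophages overlap below.

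Among neuron classes, myelinated neurons had the highest Scn1a, Scn8a and Scn4b and nonpeptidergic nociceptors the highest Scn11a. Neurons were put into classes by markers such as Mrgprd (nonpeptidergic nociceptors), Tac1 and Calca (peptidergic nociceptors), Nefh and Pvalb (myelinated neurons) and Th (C-low-threshold mechanoreceptors, C-LTMR), which gave 22 nonpeptidergic, 195 peptidergic, 31 myelinated, 21 C-LTMR and 7 pruritic neurons, with 81 unclassed. Each class was set against the mean of the others over library sums of at least 4 barcodes, a minimum lowered from 10 after the sizes were seen because 10 left too few sums to fit. The other classes weighed equally in that mean, among them pruritic neurons with 1 sum. In the injury libraries 23 peptidergic, 4 myelinated, 4 pruritic, 2 C-LTMR and 0 nonpeptidergic neurons were in the injured state described further on. Class and that state were thus partly mixed in these fits. Where a class held few or no UMIs of a gene, the fitted differences of that gene depend on the prior count and are no bounds.

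In myelinated neurons 4 members were called higher and 1 lower (edgeR, adjusted p under 0.05; background 4.96% of 8663 genes higher and 1.62% lower). Scn1a, which encodes NaV1.1, was 28.4 and 93.7 CPM in myelinated neurons of the control libraries and 49.9 and 51.6 CPM in those of the injury libraries, against 0 to 3.28 CPM in nonpeptidergic neurons. Its log2 difference was 4.87 ± 0.73 (adjusted p = 0.000466). Scn8a, which encodes NaV1.6, the channel of the nodes of Ranvier, was 199, 163, 66.5 and 66.8 CPM in myelinated neurons, in the same order, and at most 13.5 CPM in peptidergic neurons. Myelinated and peptidergic neurons did not overlap, and the log2 difference was 3.88 ± 0.40 (adjusted p = 8.11e-06). Scn4b was 99.4, 96.1, 24.9 and 36.4 CPM, with a log2 difference of 4.38 ± 0.99 (adjusted p = 0.0195). Its UMIs came from only 10 of the 31 neurons. C-LTMR, in control library 2 and injury libraries 1 and 2, had Scn4b at 38.7, 0 and 18.1 CPM and Scn1a at 14.5, 0 and 36.3 CPM. These ranges overlap those of myelinated neurons, though myelinated neurons were higher in each of these libraries. Scn8a in C-LTMR was at most 30.2 CPM. Pruritic neurons held no UMI of Scn1a or Scn4b and nonpeptidergic neurons 1 UMI of Scn1a, so the large differences of Scn1a and Scn4b depend on the prior count. Scn7a was higher by 1.16 ± 0.29 (adjusted p = 0.0223).

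Scn11a went the other way in myelinated neurons. It was 71.0 and 7.21 CPM in the control libraries and 0 in both injury libraries, with a log2 difference of -3.53 ± 0.56 (adjusted p = 0.000815). Scn10a was not called (-0.07 ± 0.92, adjusted p = 0.99), with 695 and 108 CPM in the control libraries and no UMI in either injury library. These Scn10a UMIs came from 4 of 31 barcodes. The myelinated result leaned on control library 2, which held 17 of the neurons: without it Scn8a alone stayed called, while Scn1a (3.81, adjusted p = 0.162), Scn4b (4.94, 0.105), Scn7a (1.06, 0.233) and Scn11a (-2.91, 0.0977) kept their directions. Scn4b was also not called without injury library 2 (3.23, adjusted p = 0.131).

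In nonpeptidergic neurons, which end in the outer skin, Scn11a was called higher and Scn7a lower (background 3.27% higher and 1.42% lower). Scn11a was 257 and 279 CPM in the control libraries and 380 and 154 CPM in the injury libraries. The value of 380 CPM came from 1 barcode. The sum of control library 1 held 4 barcodes, and 1 of them, with 212193 UMIs of all genes, gave 35 of its 105 Scn11a UMIs. Peptidergic neurons had 101, 115, 13.96 and 55.1 CPM, so the classes did not overlap. Outside the injured state, peptidergic neurons of the injury libraries had 45.2 and 71.5 CPM. The log2 difference of Scn11a was 1.99 ± 0.34 (adjusted p = 0.00157), and 1.61 (adjusted p = 0.169) without control library 2. Scn7a was 49.0, 93.7, 40.7 and 52.4 CPM, under the 195, 223, 78.2 and 117 CPM of peptidergic neurons in each library, with a log2 difference of -1.41 ± 0.34 (adjusted p = 0.021). That call was lost without control library 1 (-1.36, adjusted p = 0.0698), without control library 2 (-1.79, adjusted p = 0.0896) and with a stricter class assignment (-1.27, adjusted p = 0.107). Scn10a had its highest summed level in this class (235 CPM, against 77.1 CPM in peptidergic neurons) but was not called (0.98 ± 0.78, adjusted p = 0.612). Without injury library 2, Scn10a (1.251, adjusted p = 0.0456) was called higher, and Scn1a (-6.64, adjusted p = 0.00123), Scn8a (-3.05, adjusted p = 0.00157) and Scn2b (-4.25, adjusted p = 1.18e-10) lower, while Scn7a and Scn11a kept their calls.

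No member was called in peptidergic neurons (background 3.54% higher and 0.889% lower) or in C-LTMR (2.44% and 0.889%). At an unadjusted p under 0.05 there were 1 member and 1500 of 8663 genes in peptidergic neurons. In C-LTMR there were 4 members and 1215 of 8663 genes. Scn9a was spread over all classes: it was read in 94.9 to 100% of the neurons of each of the 5 named classes, and no class was called for it. C-LTMR gave its highest summed level, 350 CPM, against 220 CPM in peptidergic neurons, with a log2 difference of 0.83 ± 0.34 (adjusted p = 0.247). Scn2b was 121, 20.7 and 66.5 CPM in C-LTMR of control library 2 and injury libraries 1 and 2 and 0 to 16.4 CPM in nonpeptidergic neurons, and was not called in C-LTMR (3.27 ± 1.24, adjusted p = 0.25). No UMI of Scn1a, Scn2b or Scn4b was read in the 7 pruritic neurons, a number too small to test. All of these neurons came from the injury libraries, and 4 of them were in the injured state described further on. Class and injury state could thus not be told apart for them.

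**Figure D3:**
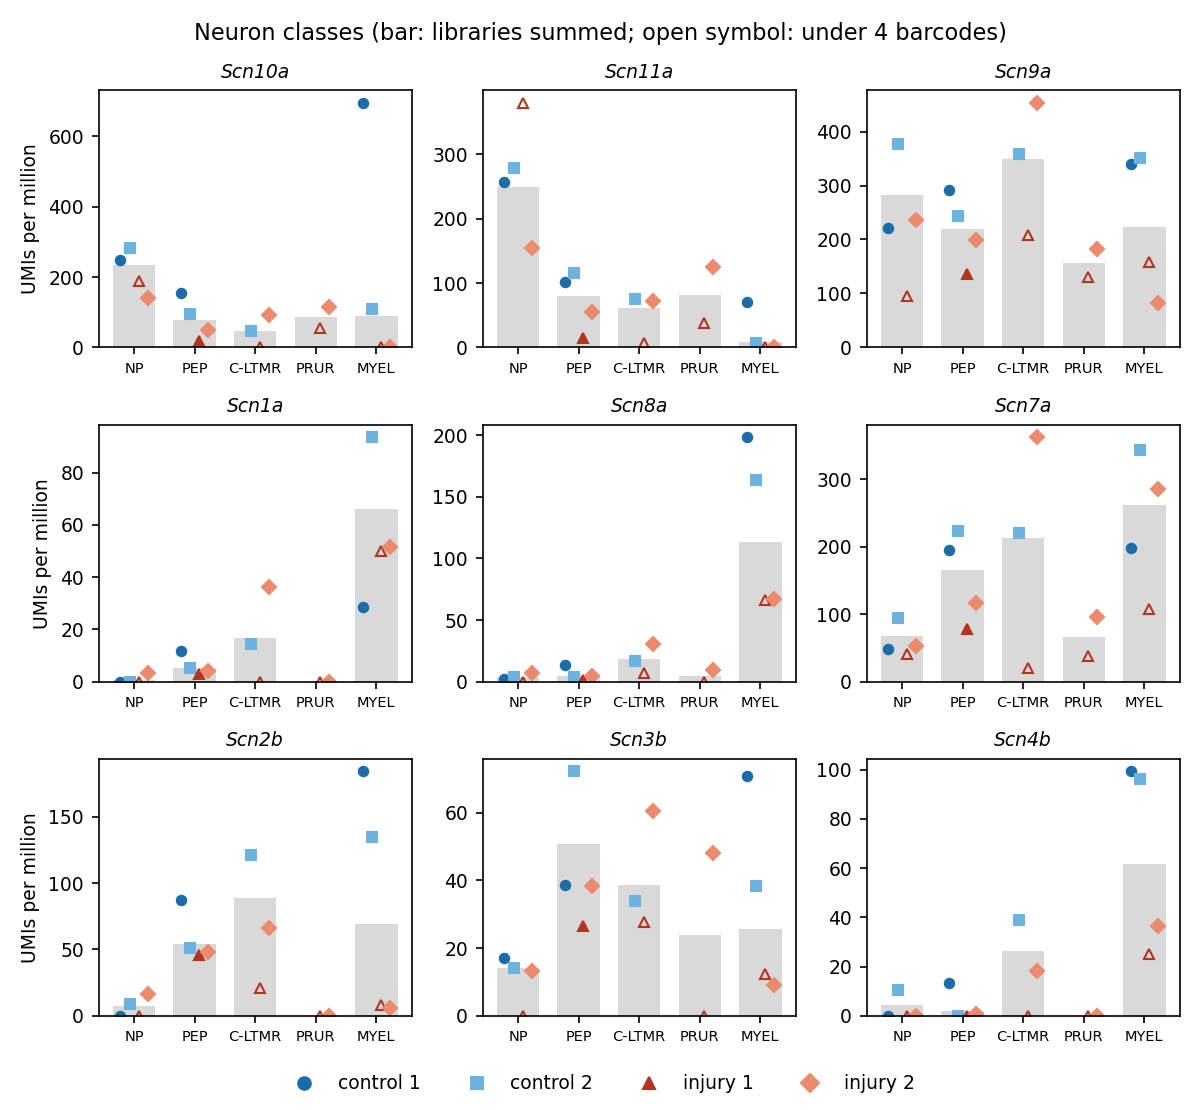
Level of each member by neuron class (NP nonpeptidergic, PEP peptidergic, PRUR pruritic, MYEL myelinated) in CPM on linear axes; bars are the libraries summed, symbols single libraries, and open symbols sums of under 4 barcodes. Scn1a, Scn8a and Scn4b are highest at the right, in myelinated neurons (66.3, 114 and 61.5 CPM), and Scn11a at the left, in nonpeptidergic neurons (250 CPM).

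The study's main comparison set injury against control. All 9 members had a lower fitted level in neurons of the injury libraries, by 0.27 to 1.61 on the log2 scale, and none passed the test (edgeR, adjusted p under 0.05; background 0% lower and 0.00940% higher of 10641 genes, that is 1 gene). The median log2 difference of the members was -0.74, and that of all genes -0.02. Without adjustment, 3 members and 1066 genes had a p under 0.05. For 8 of the 9 members both injury libraries lay below both control libraries, and 32.0% of all genes tested did so.

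Scn10a was 216 and 111 CPM in control neurons and 23.0 and 73.9 CPM in injury neurons. The groups did not overlap, but the libraries of each group differed widely, and the log2 difference of -1.61 ± 0.60 had an adjusted p of 0.483. Scn11a was 152 and 108 CPM in control and 29.6 and 56.9 CPM in injury neurons, a log2 difference of -1.44 ± 0.34 (adjusted p = 0.309). Scn2b, whose product binds alpha subunits through a disulfide bond, was 69.4 and 71.5 CPM in control and 24.8 and 37.3 CPM in injury neurons. Its control libraries lay close together, and its log2 difference was -1.04 ± 0.26 (adjusted p = 0.312).

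The other members differed less. Scn4b was 16.0 and 15.8 CPM in control and 4.23 and 9.80 CPM in injury neurons (-0.98 ± 0.43, adjusted p = 0.511). Scn7a was 173 and 227 CPM against 67.7 and 151 CPM (-0.74 ± 0.35, adjusted p = 0.537). Scn3b was 32.9 and 56.0 CPM against 17.5 and 33.3 CPM, the one member whose groups overlapped (-0.68 ± 0.36, adjusted p = 0.565). The tetrodotoxin-sensitive alpha subunits had the smallest differences. Scn9a was 273 and 316 CPM in control and 162 and 218 CPM in injury neurons (-0.50 ± 0.22, adjusted p = 0.514). Scn1a was 14.2 and 17.5 CPM against 9.06 and 11.8 CPM (-0.47 ± 0.33, adjusted p = 0.647), and Scn8a 25.8 and 23.2 CPM against 13.9 and 22.2 CPM (-0.27 ± 0.31, adjusted p = 0.782). In every member injury library 1 had the lowest of the 4 values.

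Markers of other cells were read in the same neurons. Fibroblast markers summed to 320 and 307 CPM in control neurons and to 87.0 and 183 CPM in injury neurons, so that they too were lower in both injury libraries, and their part in the differences was not tested. Fibroblasts themselves held Scn7a and Scn2b below every neuronal value, at 33.7 to 51.7 CPM and 9.26 to 13.5 CPM. The neuronal marker list summed to more, at 11149 and 11613 CPM in control and 15260 and 12322 CPM in injury neurons, but its genes were split. Tubb3 was higher in both injury libraries (6782 and 4256 CPM against 2538 and 2988 CPM). Isl1 (147 and 215 against 242 and 298 CPM), Elavl4 (343 and 455 against 499 and 575 CPM) and Rbfox3 (64.6 and 104 against 165 and 176 CPM) were lower in both. The rest of the list overlapped between the groups. Satellite glial markers overlapped between the groups, and among neurons with a satellite glial marker share up to the median the difference was -1.70 for Scn10a (adjusted p = 0.458) and -1.84 for Scn11a (adjusted p = 0.305), with no member called.

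Calls appeared under other settings, which also called more of all genes than the main fit did, as counted under the processing. Without the low-count filter Scn10a (-1.59, adjusted p = 0.000196), Scn11a (-1.43, adjusted p = 5.85e-05) and Scn2b (-1.04, adjusted p = 0.0236) were called, DESeq2 called Scn11a (-1.44, adjusted p = 0.0415), and without injury library 2 edgeR called Scn7a (-1.36, adjusted p = 0.0487) and Scn11a (-1.93, adjusted p = 0.0319). With each neuron thinned to 3000 UMIs, so that every neuron weighed alike, the difference was -0.80 for Scn10a and -0.64 for Scn11a (adjusted p = 0.997 for both).

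**Figure D4:**
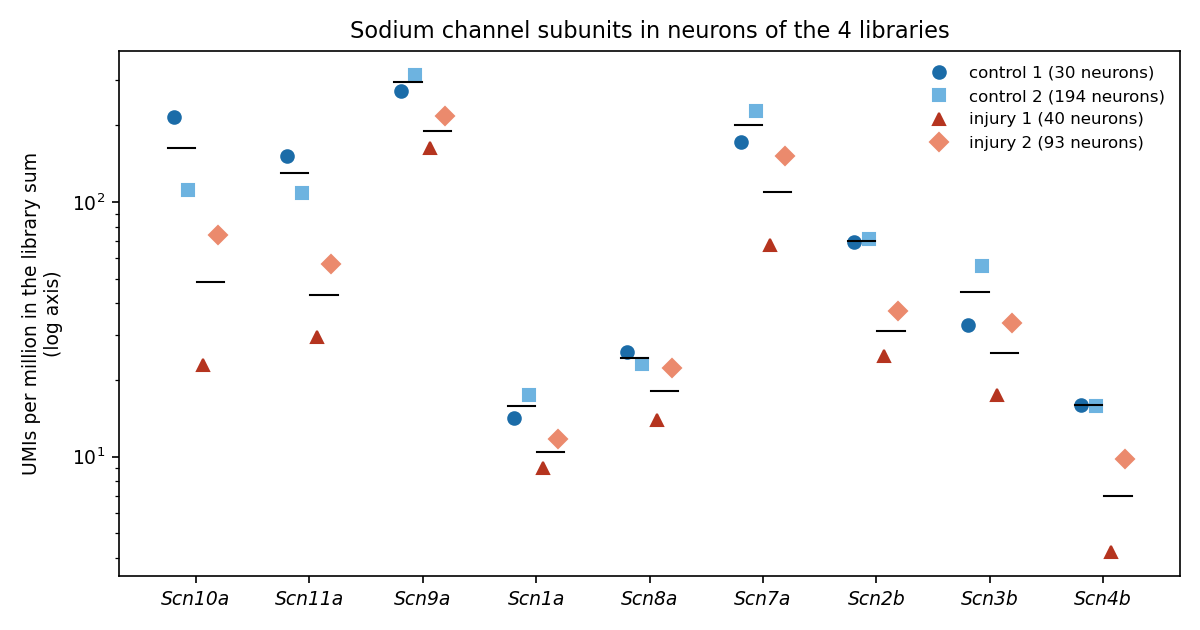
Level of each member in neurons, as CPM on a log axis, with 1 symbol per library and a black line at the mean of each group of 2 libraries. Injury libraries lie below control libraries for every member but Scn3b, and injury library 1 is the lowest of the 4 throughout, from 4.23 CPM for Scn4b to 162 CPM for Scn9a.

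Within the injury libraries the subunits differed between neurons in which many injury-response genes were read and the rest. Neurons were called injured-state when at least 6 of 8 injury-response genes were read in them (Atf3, Sprr1a, Ecel1, Sox11, Gal, Npy, Gadd45a and Flrt3, genes of transcription, axon growth and neuropeptides known to rise after axotomy). This held for 23 of 40 neurons of injury library 1, for 21 of 93 of injury library 2 and for 0 of 224 control neurons. The threshold was set after seeing the data, and control neurons had at most 5 of the genes. The 0 among control neurons thus follows from the threshold and is no test of the state. The class is a range of a count, and 3 and 7 injury neurons and 4 and 11 control neurons had 5 of the genes. Injured-state neurons were deeper, with medians of 38095 and 40822 UMIs against 25504 and 23233.5 UMIs in the other neurons of the same libraries. They included 23 peptidergic, 4 myelinated, 4 pruritic, 2 C-LTMR and 11 unclassed neurons and no nonpeptidergic one. Class genes differed as well, in both directions. Among the genes of the peptidergic list, the median over neurons was lower in injured-state than in other injury neurons for Tac1 (7.71 against 2113 CPM) and Calca (146 against 182 CPM), higher for Gfra3 (416 against 164 CPM) and Adcyap1 (132 against 95.4 CPM), and 0 in both for Smr2. The median of Nefh, of the myelinated list, was 106 against 79.3 CPM. Of the pruritic list, Nts was read in 63.6% of injured-state, 7.87% of other injury and 1.34% of control neurons. Sst and Cysltr2 of the same list were read in 0% of injured-state and in 2.25 and 4.49% of other injury neurons.

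Of the 9 members, 6 were called lower in injured-state neurons and none higher (edgeR with the library as a block, adjusted p under 0.05; background 9.51% lower and 9.41% higher of 8578 genes). The median log2 difference was -1.72 over the members and -0.01 over all genes tested. The fit rests on 4 sums with 1 residual degree of freedom. Its p-values therefore lean mainly on a spread pooled over genes, not on that of each gene between the 2 libraries. The calls of Scn10a, Scn11a, Scn2b and Scn7a held under all 6 alternatives run, that of Scn9a under 4 of them, and that of Scn3b under none (adjusted p = 0.0516 to 0.767). These were no library block, RLE size factors, no low-count filter, a stricter gate, Sprr1a alone and peptidergic neurons only. DESeq2 was not among them.

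The tetrodotoxin-resistant channels had the largest differences. Scn10a was 4.08 and 2.13 CPM in injured-state neurons of injury libraries 1 and 2, from 5 and 2 UMIs, and 76.7 and 106 CPM in the other neurons. It was 24.6 times lower (log2 difference -4.62 ± 0.44, adjusted p = 6.09e-24). Scn11a had the same UMI numbers in injured-state neurons and 102 and 81.1 CPM in the others, 25.4 times lower (-4.67 ± 0.44, adjusted p = 8.17e-24). Scn10a was read in 11.4% of the 44 injured-state neurons, 41.6% of the 89 other injury neurons and 48.7% of control neurons, and thinned to 1000 UMIs in 0.279, 6.65 and 8.69%.

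Scn2b was 11.4 and 7.45 CPM in injured-state and 62.8 and 50.5 CPM in other neurons (-2.43 ± 0.39, adjusted p = 1.87e-08). Scn7a was 43.3 and 47.9 CPM against 137 and 197 CPM (-1.72 ± 0.25, adjusted p = 6.14e-10). Scn9a was 142 and 94.7 CPM against 221 and 273 CPM, a smaller fall of 1.92 times (-0.94 ± 0.23, adjusted p = 0.000469), and it was still read in 42 of the 44 injured-state neurons. Scn3b was 11.4 and 21.3 CPM against 34.9 and 38.7 CPM and passed narrowly (-1.001 ± 0.38, adjusted p = 0.0454). In all of these the states did not overlap between libraries, and the same held for Scn4b, Scn8a and Scn1a, which were not called. Non-overlap thus did not set the called members apart. The share of all genes without overlap was not counted for this comparison.

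Not called were Scn4b, at 1.63 and 3.19 CPM against 11.6 and 12.7 CPM (-2.14 ± 0.84, adjusted p = 0.0563), Scn8a, at 6.53 and 21.3 CPM against 34.9 and 22.6 CPM (-0.80 ± 0.43, adjusted p = 0.214), and Scn1a, at 7.35 and 8.51 CPM against 13.9 and 13.2 CPM (-0.60 ± 0.62, adjusted p = 0.597). With injured-state neurons left out of the injury libraries the difference from control was -0.75 for Scn10a, -0.48 for Scn11a, -0.20 for Scn9a and 0.19 for Scn8a, with adjusted p = 0.9997 for each.

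The tetrodotoxin-resistant channels were also lower among peptidergic neurons alone. With 23 injured-state and 43 other peptidergic neurons, Scn10a was 0 and 2.81 CPM against 54.3 and 65.9 CPM (-5.25, adjusted p = 7.85e-06) and Scn11a 0 and 5.61 CPM against 45.2 and 71.5 CPM (-4.31, adjusted p = 5.23e-05), and with so few UMIs in injured-state neurons these fitted differences depend on the prior count. Scn7a (-1.79, adjusted p = 0.00169) and Scn2b (-1.95, adjusted p = 0.00621) were called there as well, whereas Scn9a (-0.69, adjusted p = 0.378) and Scn3b (-0.46, adjusted p = 0.767) were not. With Sprr1a alone as the mark of the state, Scn10a differed by -2.85 (adjusted p = 2.02e-13) and Scn11a by -2.68 (adjusted p = 4.69e-11), Scn4b was called (-2.35, adjusted p = 0.0377), and Scn3b was not (-0.99, adjusted p = 0.0715).

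**Figure D5:**
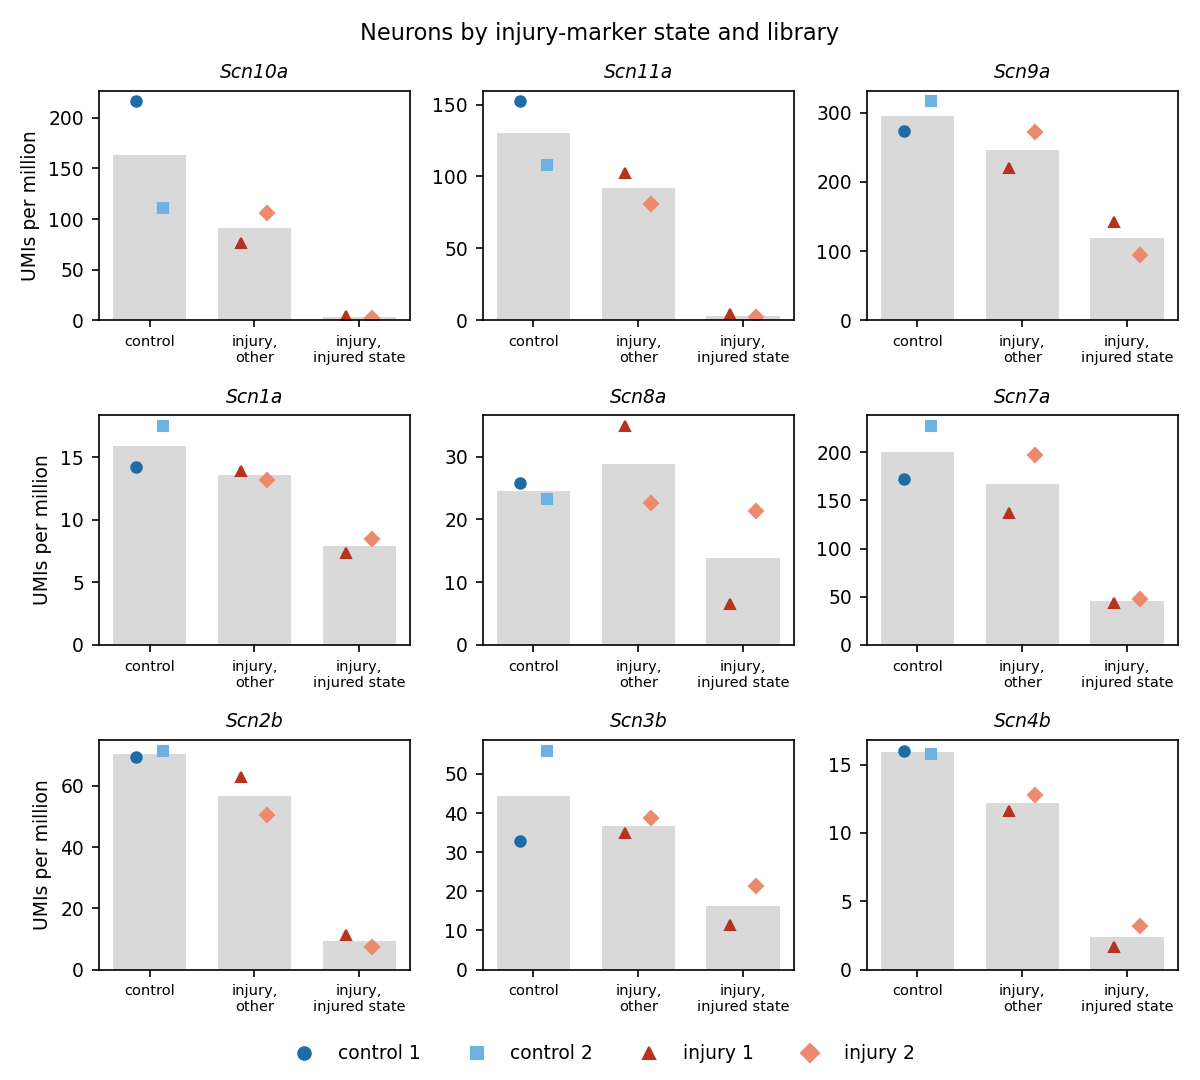
Level of each member in control neurons, other neurons of the injury libraries and injured-state neurons, in CPM on linear axes from 0; symbols are libraries and bars the mean of the 2 libraries. Scn10a and Scn11a are close to 0 in injured-state neurons (2.13 to 4.08 CPM), whereas Scn9a stays at 94.7 and 142 CPM.

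Outside neurons, no member was called between injury and control. In satellite glia (background 0% lower and 0.0112% higher of 8899 genes), Scn3b differed by -0.73 ± 0.43 (adjusted p = 0.99965). Both injury libraries (15.9 and 41.9 CPM) lay below both control libraries (52.1 and 48.2 CPM), injury library 2 close to them. Scn7a differed there by 0.46 ± 0.60 (adjusted p = 0.99965) from the low levels given above. In fibroblasts (0% lower and 0.0109% higher of 9137 genes), Scn7a was higher in both injury libraries (40.1 and 51.7 CPM against 37.0 and 33.7 CPM), by 0.43 ± 0.25 (adjusted p = 0.99995), and Scn2b differed by 0.06 ± 0.41 (adjusted p = 0.99995). No member passed the low-count filter in myelinating Schwann cells (0% called of 2762 genes). In the nonmyelinating Schwann gate (0% called of 751 genes), Scn7a differed by -1.30 ± 0.96 (adjusted p = 0.99964). That value rested on control library 1: it was 0.55 (adjusted p = 0.971) without it and -1.998 (adjusted p = 0.0253) without control library 2. The replicate number as a block gave -1.61 (adjusted p = 0.0272). Genes with a p under 0.05 before adjustment numbered 121 in satellite glia, 39 in myelinating Schwann cells, 5 in the nonmyelinating Schwann gate and 164 in fibroblasts, with no member among them.

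Genes that act with the channels were read beside them: other subunits, fibroblast growth factor homologous factors, ankyrins, adhesion proteins of the axon initial segment and node, calmodulins and others. Of the 26 genes listed, 25 were in the files. Injury against control in neurons called none of the 22 tested (median log2 difference 0.08). In injured-state neurons 2 of 21 were called higher and 5 lower, where 9.41% of all genes were higher and 9.51% lower, so the number called higher was near the background. Higher were S100a10 (1.57 ± 0.19, adjusted p = 4.04e-14), which encodes p11, a carrier of NaV1.8 to the membrane, and Ank3 (1.39 ± 0.21, adjusted p = 1.69e-09), which encodes ankyrin-G, the anchor of sodium channels. Among those lower were the sodium leak channel gene Nalcn (-2.44 ± 0.54, adjusted p = 9.3e-05), Fgf13 (-2.05 ± 0.21, adjusted p = 3.4e-21), Nedd4l (-1.17 ± 0.33, adjusted p = 0.00384), whose product marks channels for removal, and Cntn1 (-1.03 ± 0.25, adjusted p = 0.000635). Scn3a (-1.06 ± 0.44, adjusted p = 0.079) was not called.

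In myelinated neurons 7 of 21 of these genes were called higher (4.96% of all genes) and none lower, among them Nfasc (3.32 ± 0.49, adjusted p = 0.000344), Nrcam (3.15 ± 0.70, adjusted p = 0.011), Cntn1 (3.91 ± 0.36, adjusted p = 2.39e-06) and Fgf12 (1.46 ± 0.31, adjusted p = 0.00693). Nfasc, Nrcam and Cntn1 encode adhesion proteins of the node of Ranvier. In nonpeptidergic neurons 3 were lower (1.42% of all genes), among them Nrcam (-5.73 ± 1.49, adjusted p = 0.0341) and Nfasc (-3.28 ± 0.92, adjusted p = 0.048). In peptidergic neurons Scn3a (2.94 ± 0.77, adjusted p = 0.034), which encodes NaV1.3, and Fgf13 (1.05 ± 0.25, adjusted p = 0.017) were higher. In C-LTMR Fgf12 was higher (1.78 ± 0.35, adjusted p = 0.00519). Against the other gates 13 of the 16 tested were called higher in neurons (19.7% of all genes), with a log2 difference of 6.69 for Fgf13. A gene could pass the low-count filter through neurons alone, so this count has the limit given for the members.

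The genes most like each member were found by Pearson's r of log2(CPM + 1) over 46 sums of a library and a gate. The sums of 1 library share its depth and those of neurons their cell type, so the values are descriptive. Scn10a was nearest to Jph3 (r = 0.949), Tmem151b (0.934), Prrxl1 (0.933), Prdm12 (0.931) and Grik1 (0.927), of which Prrxl1 and Prdm12 encode transcription factors of pain-sensing neurons. Scn11a was nearest to Slc45a1 (r = 0.926) and Scn9a to Actl6b (0.921). The nearest gene of Scn4b was Kcnmb1 (r = 0.931), a potassium channel subunit gene of smooth muscle, and those of Scn7a were Igsf3 (0.739), Chl1 (0.739), Gfra3 (0.719), Ngfr (0.718) and Ank3 (0.714), of which Chl1 and Ngfr are markers that set the nonmyelinating Schwann gate. Scn3b was nearest to Tmeff1 (r = 0.814), Scn2b to Gna14 (0.848), Scn8a to Tenm1 (0.861) and Scn1a to Gm26871 (0.994).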

How the data were processed

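The authors deposited, for each library, UMI counts that Cell Ranger (mm10) gave for each gene in each barcode it called as a cell, not scaled. The lowest total of a barcode was 966 to 3466 UMIs per library. The strand setting is not given in the sources used here. Barcodes were gated by marker lists: each marker's log(counts per 10000 + 1) was scaled by its 99th percentile and capped at 1.5, and a barcode took the list with the highest mean if it led the next by 1.5 times with at least 3 markers read. Neuron classes used a lead of 1.25. These thresholds, and the injury state (at least 6 of 8 genes), were set after seeing the data. The members, lists and comparisons were chosen with earlier results of these data known. The 9 members were always named, and partner genes when they passed the test or had the largest changes.

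Counts were summed per library and gate (n = 2 libraries a condition), normalised by TMM, filtered with filterByExpr and tested in R 4.3.3 with edgeR 4.0.16 (quasi-likelihood, two-sided, Benjamini-Hochberg over all genes tested). The libraries of a condition are described as independent experiments on pooled mice, so the replicates are pools and not single animals. The test shares its estimate of spread across genes, so p-values rest in part on the spread of other genes. In the injured-state comparison they rest mainly on that shared spread. Neurons against other gates and the state and class comparisons had the library as a block, and gates with under 10 barcodes in a library were left out of the first. The tests were tried on simulated counts with a spread shared by all genes. For injury against control in neurons, edgeR recovered 7 of 67 changes of 2-fold and 52 of 67 of 4-fold. A member that was not called there may thus still differ by 2-fold or more. Scn10a and Scn11a, neither called, were fitted 3.05 and 2.71 times lower. Alternatives were DESeq2 1.42.0, RLE size factors, no low-count filter, the study's cell limits (600 to 15000 UMIs, 500 to 4000 genes, under 10% mitochondrial), stricter gates, and each library left out. DESeq2 and the study's cell limits were not run for the class and state comparisons. The study's limits were not used in the main fits because they keep 5, 44, 5 and 17 neurons. Thinned shares are the expected share of barcodes with a UMI in 1000 drawn UMIs. Some partner genes are counted but not reported here by name. Adgre1 was not used among the macrophage markers. Python 3.11.15, pandas 2.3.3 and SciPy 1.17.1 were used for the gates and levels.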

Additional observations from a re-analysis of the deposited data

Results flagged for a closer look

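Scn7a was lower in both injury libraries in neurons and higher in both in satellite glia and in fibroblasts. The satellite glial levels were low, at 0 and 6.94 CPM in the control and 7.36 and 9.62 CPM in the injury libraries. They did not stand apart from those of macrophages (2.33 to 28.8 CPM). The difference of the injury effects (neurons minus the other gate, edgeR quasi-likelihood test over sums of the same libraries) was -1.16 ± 0.70 on the log2 scale against satellite glia (adjusted p = 0.99993 over 11150 genes) and -1.22 ± 0.50 against fibroblasts (adjusted p = 0.99999 over 11295 genes), so neither passed the correction. No gene was called in either test, with 359 and 480 genes at an unadjusted p under 0.05.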

How the results depend on the processing

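With 2 libraries a condition and 30 to 194 neurons in each, counts of called genes moved with most settings. Over the alternatives for single members, 484 values kept direction and call, 22 lost a call, 21 gained one and 11 turned sign. The cause of these moves was not tested.

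With no low-count filter, 3 members and 561 genes were called in neurons between injury and control, against 0 and 1, and 7 genes in satellite glia, 4 in myelinating Schwann cells, 1 in the nonmyelinating Schwann gate and 29 in fibroblasts, against 1, 0, 0 and 1. That setting called 4144 genes in neurons against the other gates (2175 with the filter), 2 members lower and 642 genes in nonpeptidergic neurons (1 and 406), 1 member higher and 808 genes in peptidergic neurons (0 and 384), and 1 member higher and 497 genes in C-LTMR (0 and 288). DESeq2 called 1 member and 140 genes in neurons between injury and control, 4 genes in myelinating Schwann cells, 6 in fibroblasts, and 4 members in place of 7 in neurons against the other gates.

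The replicate number was tried as a block, although the labels state no pairing beyond the number 2 given to 1 library of each condition. In neurons the correlation of deviations of same-numbered libraries was 0.167 over 10641 genes. Some barcode numbers were alike by library number. Control and injury libraries 1 held 70 and 106 pericytes and 111 and 104 myelinating Schwann cells, and libraries 2 held 8 and 6 and 33 and 23. Satellite glia were not alike (43 and 383, then 555 and 273). Whether same-numbered libraries form a batch was not tested. The replicate block called 85 genes in neurons and no member, 21 in satellite glia, 22 in myelinating Schwann cells, 5 in the nonmyelinating Schwann gate and 11 in fibroblasts. Where the library was the block, leaving it out called no member lower in myelinated neurons (1 with it) and 856 genes in injured-state neurons (1623 with it).

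Injury against control in neurons called 2 genes within the study's cell limits, 0 with a stricter gate, 15 in neurons with a satellite glial share up to the median, 30 in peptidergic neurons only, 0 without injured-state neurons and 11 with thinning, the last 3 chosen after seeing the data. The cell limits called 3 genes in fibroblasts, the stricter gate 2 in satellite glia, and a stricter class lead no member lower in nonpeptidergic neurons. Peptidergic neurons alone called 408 genes for the injured state.

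Leaving out 1 library at a time, with a lone library assumed to vary like the others, called 0 to 2 members and 8 to 353 genes in neurons between injury and control. The range was 0 to 10 genes in satellite glia, 2 to 13 in myelinating Schwann cells, 0 to 11 in the nonmyelinating Schwann gate and 0 to 157 in fibroblasts. For nonpeptidergic neurons it was 0 to 4 members lower, 0 to 2 higher and 84 to 848 genes, and for peptidergic neurons 0 to 1 lower, 0 to 1 higher and 50 to 922 genes. For myelinated neurons it was 0 to 1 member lower, 1 to 4 higher and 118 to 743 genes. C-LTMR could not be fitted without control library 2 or injury library 2, pruritic neurons at all, or the injured state with 1 library, which leaves no residual degrees of freedom.

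Signs turned, none of them called, for Scn8a in neurons without injured-state neurons (0.19), for Scn7a in the nonmyelinating Schwann gate without control library 1 (-3.42 to 0.55 over the 4 libraries left out), and in 9 class values. In myelinated neurons Scn10a was 0.90 without the library block and 0.025 with RLE size factors. With 1 library left out at a time, the range there was -1.08 to 1.02 for Scn10a, -0.73 to 0.079 for Scn9a and -0.61 to 0.41 for Scn3b, the upper ends without injury library 2. In nonpeptidergic neurons it was -0.088 to 0.33 for Scn9a, negative without control library 2, and -5.41 to 0.61 for Scn4b, positive without control library 1. In peptidergic neurons it was -0.30 to 0.53 for Scn11a and -4.09 to 0.17 for Scn4b, with the turned sign in both without control library 2.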
